A study of Mus musculus with 2 samples.

Results

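Levels of 29 genes of cholesterol and fatty acid synthesis were read from single cells of regenerating mouse mammary transplants. The genes were chosen by name, from what their products do, out of the 27998 genes in the count table, and all 29 were present in it. They comprised 14 sterol enzymes, 12 fatty acid enzymes and 3 regulators. The cells came from donor mammary epithelium placed in the cleared fat pads of young female nude mice, which lack T cells but keep other immune cells. In the Ctrl library the donor basal cells were Fgfr2+/+, and in the Fgfr2 KO library they were Fgfr2∆/∆, with Fgfr2 removed in culture by an adenovirus that carried Cre and GFP. Control basal cells met the same virus, the luminal partners in both libraries were wild type and had not met Cre, and all donor cells carried the R26R mTmG reporter, which switches from Tdtomato to GFP after Cre. Transplants were dissected within days of surgery, and their cells were sorted and profiled with 10x Genomics droplets, which count each captured transcript end once by its unique molecular identifier (UMI). The strain was not given in the sources used here, and whether transplants of several mice were pooled was not stated either.

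Cells make cholesterol from acetyl units through mevalonate and squalene, and they build fatty acids from the same units on fatty acid synthase, with desaturases and elongases acting afterwards. The transcription factor SREBP2, made from Srebf2, turns on the sterol genes when membrane sterol is low, while SREBP1, made from Srebf1, acts more on the fatty acid genes. INSIG proteins hold the SREBP escort SCAP in the endoplasmic reticulum when sterol is plentiful, and Insig1 is itself an SREBP target, so that the pathway is a feedback loop. Mammary luminal cells are the lineage that later makes milk fat, and dividing cells need new membrane lipid.

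With 1 library on each side, the groups could not be tested against each other. Intervals below are 95% intervals for counting error only and do not cover the spread between animals or between cells. Cells were not treated as replicates. There were 268 Ctrl cells with 5458515 UMIs in all and 86 Fgfr2 KO cells with 1253032. No barcode occurred in both. Cells in which Ptprc, the leukocyte gene for CD45, had at least 1 UMI were set aside as Ptprc-positive cells. Of the rest, cells with at least 10 keratin UMIs were called basal keratin cells where Krt14 and Krt5 together exceeded Krt8 and Krt18, and luminal keratin cells where the reverse held. This gave 63 basal keratin, 98 luminal keratin and 73 Ptprc-positive cells in Ctrl, and 17, 20 and 23 in Fgfr2 KO. The other 34 and 26 cells were keratin-low or tied. All cells were labelled epithelial, yet macrophage markers summed to 13109 counts per 1000000 UMIs (CPM) in the Ctrl Ptprc-positive cells, against 327 CPM in basal and 325 CPM in luminal keratin cells. Fgfr2 itself had 32.9 CPM in basal and 42.6 CPM in luminal keratin cells of Ctrl, and 24.7 CPM (7 UMIs) and 50.4 CPM in those of Fgfr2 KO. Such counts come from the transcript end, which may lie outside the deleted exons, so that they do not check the deletion. Of 10 adipocyte markers, Adipoq and Plin1 had 0 UMIs in every class of both libraries, as did Lep, Retn and Car3. The list summed to at most 29.7 CPM in the keratin classes but to 942 CPM in Ctrl Ptprc-positive and 1323 CPM in Ctrl keratin-low or tied cells, and to 133 and 443 CPM in those of Fgfr2 KO, all from Fabp4, Lpl and Pparg, which other cell types also use.

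The promoters of Hmgcs1 and Insig1 are shown because Hmgcs1, an early enzyme of the mevalonate arm, was the 1 gene with a sterol regulatory element there among the members that had a promoter entry, and Insig1 was the 1 gene at least 2-fold higher in Ptprc-positive than in keratin cells. Sequences are from RefSeq on GRCm38.p6, given 5′ to 3′ on the plus strand, which is the strand of both genes. Capitals mark a sterol regulatory element, spelled TCACNCCAC, and CCAAT boxes, which appear here as ATTGG because they lie on the other strand. The Hmgcs1 stretch, chr13:119690101-119690350, ends at the base before the RefSeq start of the gene, and its sterol element begins 137 bases before that start. The Insig1 stretch, chr5:28071162-28071362, ends 50 bases before the RefSeq start, just upstream of the annotated exons of GENCODE M21, and no annotated exon lies in either stretch.
Hmgcs1: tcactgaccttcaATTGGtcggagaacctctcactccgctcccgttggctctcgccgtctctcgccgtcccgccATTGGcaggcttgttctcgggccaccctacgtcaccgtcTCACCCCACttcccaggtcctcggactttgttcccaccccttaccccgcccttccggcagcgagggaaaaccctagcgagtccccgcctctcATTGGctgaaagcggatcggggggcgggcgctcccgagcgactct
Insig1: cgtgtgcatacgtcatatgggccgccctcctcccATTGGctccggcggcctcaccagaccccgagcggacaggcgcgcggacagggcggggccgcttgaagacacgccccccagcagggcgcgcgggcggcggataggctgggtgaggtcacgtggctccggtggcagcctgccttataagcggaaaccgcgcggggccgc
In the 250 bases before the start, TCACNCCAC on either strand was found in 1 of the 23 genes of the set that had a RefSeq entry, namely Hmgcs1, and in 1.22% of 27025 genes in all. CCAAT on either strand was found in 17 of the 23 genes, or 73.9%, against 37.5% of all genes, and among them were Idi1, Msmo1, Cyp51, Fasn, Srebf1 and Srebf2. The E-box CACGTG, counted apart from the other motifs, was found in 4 of the 23 genes, which were Dhcr7, Elovl5, Insig1 and Sc5d, or 17.4%, against 6.86% of all genes. These are matches of letters and were not tested as binding sites. Entries for Fdps, Fdft1, Sqle, Scd1, Scd2 and Fads1 were not used here.

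The sterol enzymes together were most abundant in luminal keratin cells of the Ctrl library. Their UMIs summed to 466 CPM there (interval 441 to 493), to 330.0 CPM in basal keratin cells (299 to 363) and to 245 CPM in Ptprc-positive cells (219 to 274). Of these Ptprc-positive cells, 15 with at least 10 keratin UMIs held 71.6% of the sterol UMIs, and the other 58 had 129 CPM. In the Fgfr2 KO library the sums were 395 CPM in luminal keratin cells (344 to 452), 247 CPM in basal keratin cells (193 to 312) and 284 CPM in Ptprc-positive cells (224 to 355). The order of basal below luminal keratin cells was thus the same in both libraries. The place of Ptprc-positive cells in the Fgfr2 KO library was not settled, as their interval overlapped that of basal keratin cells and 1 keratin-rich cell held 55 of their 77 sterol UMIs, the other 22 cells having 117 CPM. Fatty acid enzymes were more even, with sums in Ctrl of 307 CPM in luminal keratin, 279 CPM in basal keratin and 245 CPM in Ptprc-positive cells, and sums in Fgfr2 KO of 295, 336 and 247 CPM. The regulators summed to between 73.9 and 106 CPM in these 3 classes of both libraries.

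**Figure D1:**
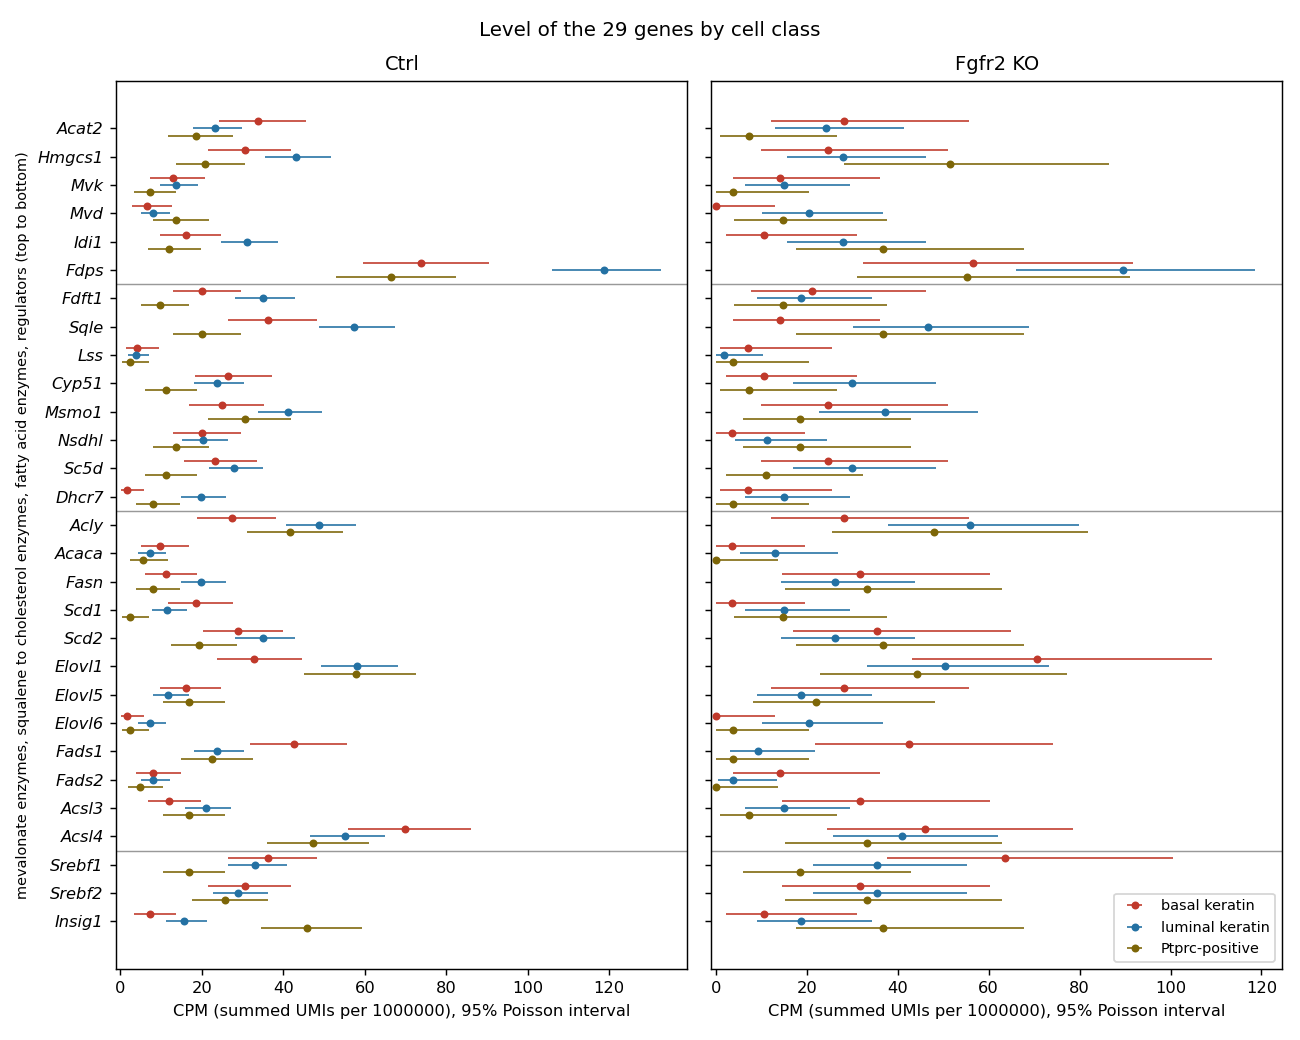
Level of each of the 29 genes, in CPM (x axis), in basal keratin, luminal keratin and Ptprc-positive cells of the Ctrl (left) and Fgfr2 KO (right) libraries. Points are the summed level of a class and bars are 95% Poisson intervals. Grey lines part the mevalonate enzymes, the squalene to cholesterol enzymes, the fatty acid enzymes and the regulators. Fdps has the highest point in the Ctrl panel, at 119 CPM in luminal keratin cells, and bars are wider for Fgfr2 KO, which had fewer UMIs.

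In the mevalonate arm, Fdps had the most UMIs. Fdps, which makes farnesyl diphosphate, had 312 UMIs in Ctrl luminal keratin cells (119 CPM), 92 in basal keratin cells (73.9 CPM) and 83 in Ptprc-positive cells (66.5 CPM), and in Fgfr2 KO it had 48 (89.5 CPM), 16 (56.5 CPM) and 15 (55.3 CPM). Fdps was therefore highest in luminal keratin cells of both libraries. Hmgcs1, which makes HMG-CoA, had 43.0 CPM in Ctrl luminal keratin, 30.5 CPM in basal keratin and 20.8 CPM in Ptprc-positive cells. Idi1, which isomerises isopentenyl diphosphate, had 31.2, 16.1 and 12 CPM in the same classes. Acat2, which joins acetyl units at the head of the arm, ran the other way, with 33.7 CPM in basal keratin and 23.2 CPM in luminal keratin cells of Ctrl, and its interval for the difference included 0. The kinase Mvk and the decarboxylase Mvd were rare, at 13.7 and 7.99 CPM in Ctrl luminal keratin cells. UMIs were counted at transcript ends and were not scaled to length, so that an order of levels between genes is rough.

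From squalene to cholesterol, Sqle and Msmo1 led. Sqle, the squalene epoxidase, had 151 UMIs in Ctrl luminal keratin cells (57.4 CPM), 45 in basal keratin cells (36.1 CPM) and 25 in Ptprc-positive cells (20.04 CPM). In Fgfr2 KO, Sqle had 25 (46.6 CPM), 4 (14.1 CPM) and 10 UMIs (36.8 CPM), and 9 of those last 10 UMIs, or 90.0%, lay in a single cell. Sqle was thus again highest in luminal keratin cells. Msmo1, a methylsterol oxidase, had 41.1 CPM in luminal and 24.9 CPM in basal keratin cells of Ctrl, and Fdft1, the squalene synthase, had 35 and 20.1 CPM. Dhcr7, which catalyses the last step to cholesterol in one branch, showed the largest gap of the 29 genes between the keratin classes, with 52 UMIs in Ctrl luminal keratin cells (19.8 CPM) and 2 in basal keratin cells (1.61 CPM). In Fgfr2 KO, Dhcr7 had 8 and 2 UMIs (14.9 and 7.07 CPM), with overlapping intervals. Cyp51, a lanosterol demethylase, Nsdhl, a sterol dehydrogenase, and Sc5d, a sterol desaturase, were close between the keratin classes of Ctrl, with log2 ratios of basal over luminal of 0.17 (-0.49 to 0.80), -0.01 (-0.75 to 0.71) and -0.25 (-0.93 to 0.38). Lss, which folds squalene epoxide into lanosterol, had 10 UMIs in Ctrl luminal keratin cells and at most 5 in any other class.

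Set against all genes, the excess in luminal keratin cells was broad among the sterol enzymes but small. In Ctrl the summed sterol enzymes had a log2 ratio of basal over luminal keratin cells of -0.50 (-0.66 to -0.34), the mevalonate arm of -0.46 (-0.69 to -0.23) and the squalene to cholesterol arm of -0.55 (-0.79 to -0.31), whereas the fatty acid enzymes had -0.14 (-0.33 to 0.04). Genes with at least 20 UMIs over both classes numbered 28 of the 29 here, Lss being the exception. None of them was at least 2-fold higher in basal keratin cells, against 5.51% of all 9535 genes that met the same minimum. Dhcr7 (-3.62), Elovl6 (-2.17) and Insig1 (-1.11) were at least 2-fold lower, which is 3 of 28, against 9.05% of all genes, so that by this measure the set was near the background. The median log2 ratio was -0.30 over the 28 genes, -0.49 over the 13 sterol enzymes among them and -0.11 over all genes. Intervals lay below 0 for 10 of the 28 genes, which besides those 3 were Idi1, Fdps, Fdft1, Sqle, Msmo1, Acly and Elovl1, with log2 ratios from -0.96 for Idi1 to -0.67 for Sqle. Over all genes 16.2% had an interval below 0 and 10.5% above it. Of the 28 genes, Fads1 alone had an interval above 0, at 0.85 (0.29 to 1.40). Of the 5 other sterol synthesis genes that met the minimum, none was 2-fold apart. Of 11 genes of sterol sensing and transport, Apoe (1.79), Soat1 (1.23) and Abca1 (1.08) were at least 2-fold higher in basal keratin cells and Mbtps2 was lower, and of 12 genes of triglyceride and lipid droplets, Fabp5, Mgll and Xdh were higher and Agpat2 and Dgat2 lower. Of 10 other fatty acid synthesis genes none was 2-fold higher, and the elongase Elovl7 (-1.70) and the malic enzyme Me1 (-1.40), a source of NADPH, were 2-fold lower.

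**Figure D2:**
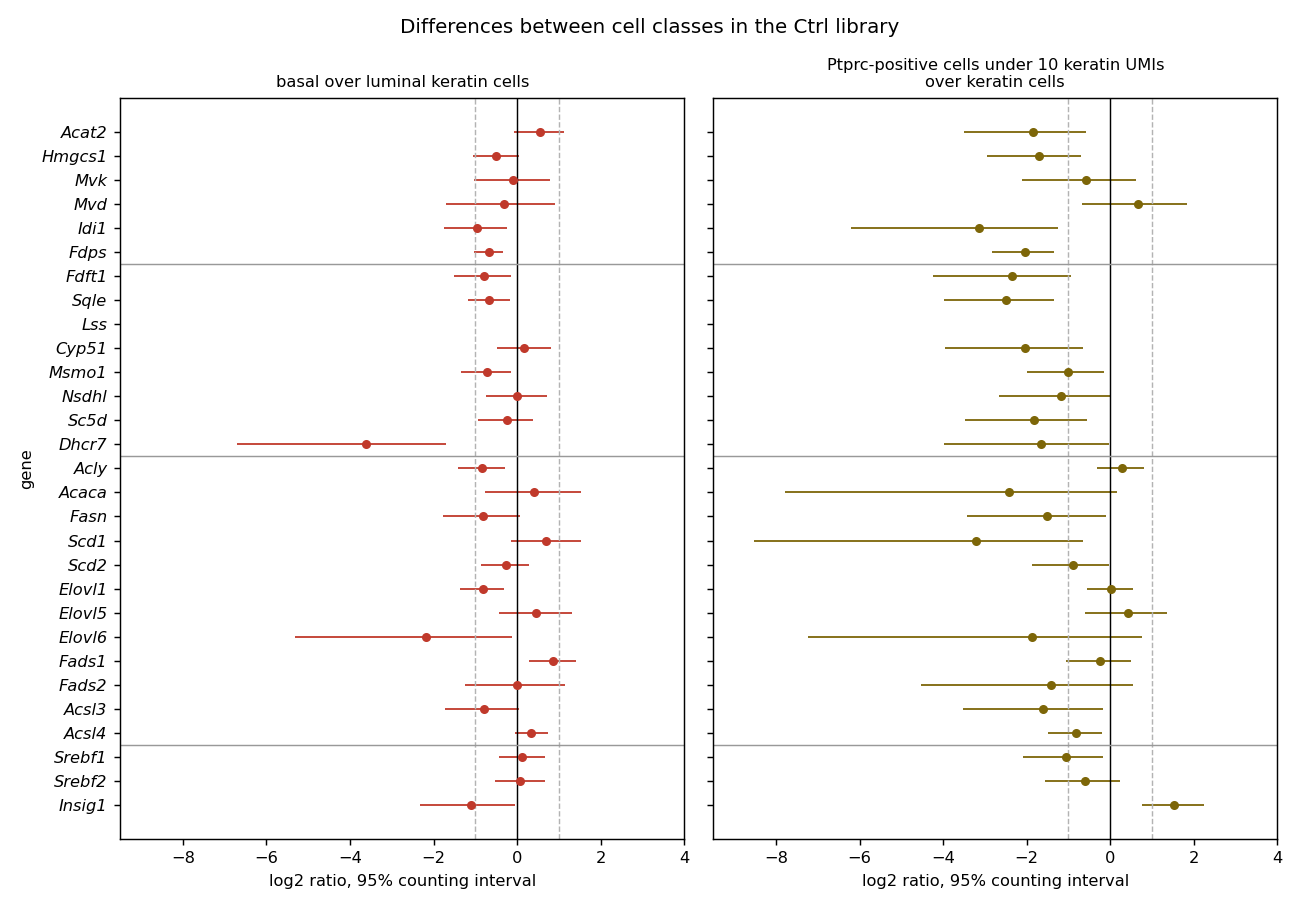
Log2 ratios in the Ctrl library (x axis) of basal over luminal keratin cells (left) and of Ptprc-positive cells with under 10 keratin UMIs over all keratin cells (right) for each gene with at least 20 UMIs in the comparison. Points are ratios of summed levels, bars are 95% counting intervals and dashed lines mark 2-fold. On the left Dhcr7 lies farthest below 0 at -3.62, and on the right Insig1 stands apart at 1.53.

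The Fgfr2 KO library held too few keratin cells to follow most single genes. The summed sterol enzymes had a log2 ratio of basal over luminal keratin cells of -0.68 (-1.09 to -0.28), and the fatty acid enzymes of 0.19 (-0.19 to 0.56). Cell cycle genes moved with the sterol enzymes here, at 2336 CPM in basal and 4092 CPM in luminal keratin cells, where Ctrl had 3851 and 3961 CPM, and stress genes stood at 13324 and 10490 CPM, and their part in the difference was not tested. Of the 29 genes, 13 had at least 20 UMIs, none was 2-fold higher in basal keratin cells against 7.33% of all genes, and Sqle was 2-fold lower at -1.72 (-3.71 to -0.19) against 13.8% of all genes. A pair of basal keratin cells decided how large the sterol gap was. These 2 cells had less than 3 times as many basal as luminal keratin UMIs and held 37 of the 70 sterol UMIs of the class, or 52.9%. The other 15 cells had 137 CPM. With the larger keratin pair required to be at least 3 times the smaller in every cell, the log2 ratio was -1.53. Outside the set, Apoe (3.37) was at least 2-fold higher in basal keratin cells and Agpat2, which makes phosphatidic acid (-2.04), and the HDL receptor Scarb1, at -1.14 (-2.71 to 0.18), were lower.

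Among fatty acid enzymes the elongases, desaturases and synthase had different profiles. Acly, which makes cytosolic acetyl-CoA from citrate, had 128 UMIs in Ctrl luminal keratin (48.7 CPM), 34 in basal keratin (27.3 CPM) and 52 in Ptprc-positive cells (41.7 CPM), and in Fgfr2 KO it had 55.9, 28.3 and 47.9 CPM, the same order. Fasn, the fatty acid synthase, had 19.8 CPM in luminal and 11.2 CPM in basal keratin cells of Ctrl. The carboxylase Acaca, which makes malonyl-CoA, lay at or below 13.1 CPM in each of these classes of both libraries. Elovl1, an elongase of very long chains, had 58.2 CPM in luminal keratin and 57.7 CPM in Ptprc-positive cells of Ctrl and 32.9 CPM in basal keratin cells. Elovl6, which extends palmitate, had 19 UMIs in Ctrl luminal keratin cells (7.23 CPM) and 2 in basal keratin cells (1.61 CPM), and in Fgfr2 KO it had 11 UMIs (20.5 CPM) and 0 UMIs, which allows a level of up to 10.6 CPM at a floor of 3 counts.

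Fads1 stood out from the other fatty acid enzymes on the basal side. Fads1, the delta-5 desaturase of polyunsaturated fatty acids, had 53 UMIs in Ctrl basal keratin cells (42.5 CPM), 62 in luminal keratin cells (23.6 CPM) and 28 in Ptprc-positive cells (22.4 CPM). In Fgfr2 KO, Fads1 had 12 (42.4 CPM), 5 (9.32 CPM) and 1 UMI (3.68 CPM), so that basal keratin cells were highest in both libraries. Scd1, which makes oleate from stearate, had 18.5 CPM in basal keratin, 11.4 CPM in luminal keratin and 2.41 CPM in Ptprc-positive cells of Ctrl, but 1 UMI (3.53 CPM) against 8 UMIs (14.9 CPM) in the keratin classes of Fgfr2 KO, and its paralog Scd2 had 28.9, 35 and 19.2 CPM. How reads that match both Scd1 and Scd2 were counted was not tested. Acsl4, which activates arachidonate, had 69.8 CPM in basal keratin and 55.2 CPM in luminal keratin cells of Ctrl, with an interval of the log2 ratio from -0.06 to 0.73. Fads2, the delta-6 desaturase, had at most 14.1 CPM in these classes, and Acsl3 and Elovl5 had between 7.37 and 31.8 CPM.

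The regulators were set apart by Insig1. Srebf1 had 36.1 CPM in basal keratin, 33.1 CPM in luminal keratin and 16.8 CPM in Ptprc-positive cells of Ctrl, and Srebf2 had 30.5, 28.9 and 25.7 CPM, so that neither gene followed the luminal excess of the enzymes. Insig1 had 9 UMIs in Ctrl basal keratin cells (7.23 CPM), 41 in luminal keratin cells (15.6 CPM) and 57 in Ptprc-positive cells (45.7 CPM). In Fgfr2 KO, Insig1 had 3 (10.6 CPM), 10 (18.6 CPM) and 10 UMIs (36.8 CPM), the same order. A transcript level of Srebf1 or Srebf2 is not a measure of the cleaved, active protein.

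Ptprc-positive cells had fewer UMIs of most sterol enzymes and more of Insig1 than keratin cells. In Ctrl the log2 ratio of Ptprc-positive over all keratin cells was -0.78 (-0.97 to -0.61) for the summed sterol enzymes and -0.28 (-0.47 to -0.10) for the fatty acid enzymes. Of 28 genes with at least 20 UMIs, 9 were at least 2-fold lower, against 21.4% of all genes: Scd1, Fdft1, Sqle, Sc5d, Elovl6, Cyp51, Idi1, Fasn and Srebf1, from -2.51 for Scd1 to -1.02 for Srebf1. Insig1 was the 1 gene at least 2-fold higher, at 1.82 (1.25 to 2.40), against 9.51% of all genes. The median log2 ratio was -0.69 over the 28 genes and -0.35 over all genes.

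Part of the Ptprc-positive class also carried keratin transcripts, and it held most of the sterol UMIs. In Ctrl 15 of the 73 cells had at least 10 keratin UMIs, 9 of them on the strength of a single Ptprc UMI. These 15 cells had 46.1% of the UMIs of the class and 71.6% of its sterol UMIs, at 381 CPM, where keratin cells had 423 CPM. The other 58 cells had 129 CPM of sterol enzymes. Against keratin cells the 58 cells had a log2 ratio of -1.71 (-2.04 to -1.40) for the sterol enzymes, -1.67 (-2.13 to -1.24) for the mevalonate arm and -1.75 (-2.24 to -1.30) for the squalene to cholesterol arm, and of -0.47 (-0.73 to -0.22) for the fatty acid enzymes. Then 18 of 28 genes were at least 2-fold lower, against 34.9% of all genes, and Insig1 at 1.53 (0.77 to 2.25) remained higher, against 11.1%. The median log2 ratio was -1.47 over the 28 genes, -1.82 over the 13 sterol enzymes and -0.59 over all genes. Cell cycle genes had 2121 CPM in the 58 cells and 3926 CPM in keratin cells, and stress genes had 4848 and 7968 CPM. Their part in the difference was not tested. Whether the 15 cells were doublets, held free RNA or were a type of their own was not tested.

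Acly and some elongases were near the keratin level in those 58 cells. Acly had a log2 ratio of 0.27 (-0.30 to 0.81) in the 58 cells over keratin cells, Elovl1 of 0.01 (-0.56 to 0.55) and Elovl5 of 0.44 (-0.60 to 1.37). Idi1 (-3.15), Sqle (-2.50), Fdft1 (-2.34), Fdps (-2.04) and Cyp51 (-2.04) lay far below 0, with intervals that excluded it.

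In the Fgfr2 KO library the size of the sterol and fatty acid differences depended on 1 cell. With all 23 Ptprc-positive cells the log2 ratio over keratin cells was -0.28 (-0.66 to 0.09) for the sterol enzymes and -0.32 (-0.73 to 0.07) for the fatty acid enzymes. Acat2, Cyp51, Sc5d and Srebf1 were at least 2-fold lower, which is 4 of 18 genes against 19.5% of all genes, and Insig1 was higher at 1.22 (-0.13 to 2.52), against 11.3%. A single cell with 83994 UMIs and 1 Ptprc UMI held 55 of the 77 sterol UMIs, or 71.4%, at 655 CPM, and it was the 1 Ptprc-positive cell of that library with at least 10 keratin UMIs. Without it the other 22 cells had 117 CPM of sterol enzymes and a log2 ratio of -1.55 (-2.25 to -0.93). The same cell held 36 of the 67 fatty acid UMIs, or 53.7%, and without it the fatty acid ratio was -0.90 (-1.49 to -0.36). With all 23 cells weighted alike the sterol ratio was -1.36, and with totals without mitochondrial and ribosomal protein genes it was -0.41 (-0.79 to -0.04). Without the 1 cell, 10 of 16 genes were at least 2-fold lower, against 30.1% of all genes, and Insig1 at 1.60 (0.19 to 2.94) was higher, against 13.5%. The median was -1.06 over the 16 genes and -0.46 over all genes.

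Several genes of sterol export and storage were higher in Ptprc-positive cells. Of 15 genes of sterol sensing and transport, 14 met the minimum in Ctrl, and 6 of them were at least 2-fold higher in Ptprc-positive than in keratin cells, against 9.51% of all genes, while 9 of the 14 ratios lay above 0 and 5 below. These were Apoe, the lipoprotein of cholesterol transport (3.12), the sterol exporters Abca1 (3.88) and Abcg1 (3.42), the sterol carrier Npc2 of lysosomes (2.35), the cholesterol esterifying enzyme Soat1 (3.21) and Nr1h3, the nuclear receptor LXR alpha (5.0). In Fgfr2 KO the same held for Abca1, Abcg1, Apoe, Npc2 and Soat1, while Insig2 and Mbtps1 were 2-fold lower with intervals that included 0. Among 12 measured genes of triglyceride and lipid droplets, Cd36 (5.90), Plin2 (2.59), Fabp5 (2.17) and Xdh (1.54) were higher in the Ctrl Ptprc-positive cells, and Dgat2, Lpin1 and Mgll were lower. In Fgfr2 KO, Plin2 (2.19) was higher and Agpat2 (-1.28) lower. Of 13 other fatty acid synthesis genes in Ctrl, the acyl-CoA synthetase Acsl1 (2.34) and the acetyl-CoA synthetase Acss2 (2.53) were at least 2-fold higher in Ptprc-positive cells, and Elovl7 (-3.04), Me1 (-1.80) and Elovl4, at -1.53 (-4.69 to 0.53), were lower. Against keratin cells of Fgfr2 KO, the citrate carrier Slc25a1 (1.41) was higher and Hacd2 (-3.87) and Hacd3 (-2.36), dehydratases of chain elongation, were lower. Several of these genes, Apoe and Cd36 among them, are also known to be abundant in macrophages. The other sterol synthesis genes had 1 of 5 measured genes at least 2-fold lower in all Ptprc-positive cells of Ctrl, Hsd17b7, and 2 of 5 in the 58 cells with few keratin UMIs, Hsd17b7 and Ggps1. Over all genes these shares were 21.4% and 34.9%, near those of the list.

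Within a class, sterol enzymes varied more from cell to cell than fatty acid enzymes. Ctrl luminal keratin cells ranged from 0 to 1947 CPM of sterol enzymes with a median cell at 253 CPM, and from 0 to 738 CPM of fatty acid enzymes with a median cell at 293 CPM. The variance of the UMIs of a cell around the value its depth predicts, relative to Poisson counting, was 8.68 for sterol and 2.13 for fatty acid enzymes in Ctrl luminal keratin cells, 5.99 and 1.67 in basal keratin cells, and 5.56 and 1.51 in Ptprc-positive cells. In Fgfr2 KO it was 3.9 and 1.64 in luminal keratin, 5.52 and 1.62 in basal keratin and 3.06 and 1.71 in Ptprc-positive cells. The Ctrl Ptprc-positive class held both the 15 keratin-rich cells at 381 CPM of sterol enzymes and the 58 others at 129 CPM. Median cells of Ctrl had 220.4 CPM of sterol enzymes among basal keratin and 118 CPM among Ptprc-positive cells, in each class below the summed level.

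**Figure D3:**
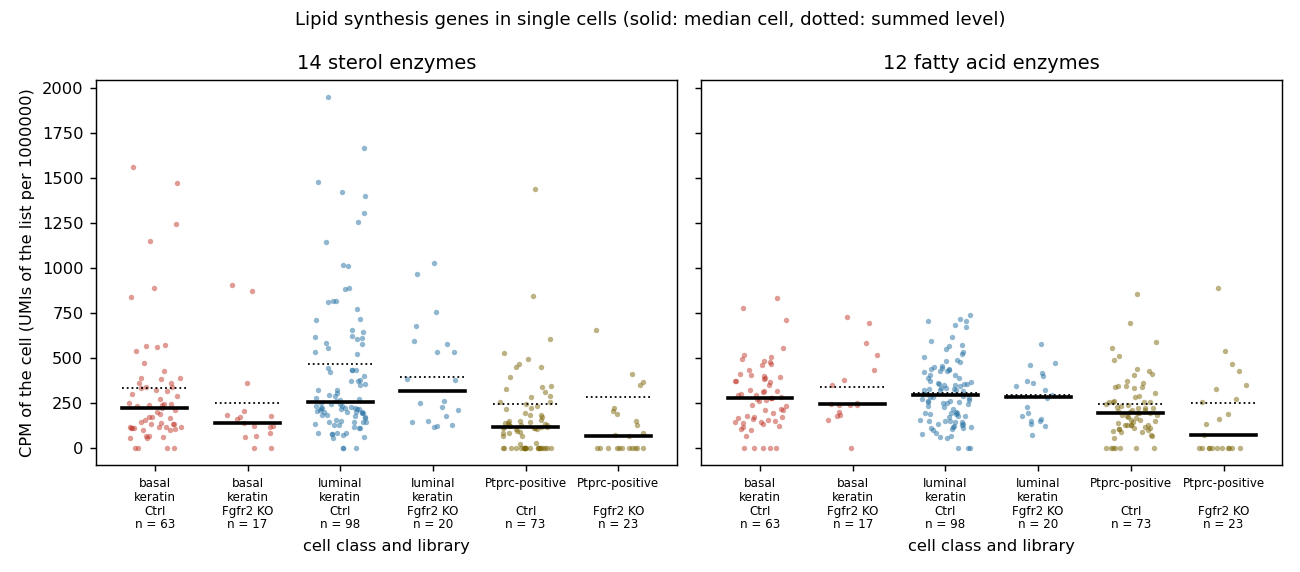
Summed UMIs of the 14 sterol enzymes (left) and the 12 fatty acid enzymes (right) in CPM of the cell (y axis), 1 point a cell, for basal keratin, luminal keratin and Ptprc-positive cells of each library, without the keratin-low or tied cells. Solid lines are the median cell and dotted lines the level from summed UMIs. Sterol enzymes reach 1947 CPM in a Ctrl luminal keratin cell with the summed level above the median cell in each column, while fatty acid enzymes stay at or below 887 CPM in these 3 classes.

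Keratin cells with much mevalonate enzyme transcript also had more of the later sterol enzymes. For a comparison chosen after the data were seen, the keratin cells of each class above the 0.75 quantile of mevalonate enzyme level were set against the other cells of that class, and the 6 mevalonate enzymes themselves were then left out of the results. In Ctrl luminal keratin cells the 25 mevalonate-high cells had 379 CPM of the 8 squalene to cholesterol enzymes, and the other 73 cells had 152 CPM, a log2 ratio of 1.32 (1.08 to 1.56). In Ctrl basal keratin cells the 16 mevalonate-high cells had 261 CPM and the other 47 had 107 CPM, a log2 ratio of 1.28 (0.86 to 1.71). In Fgfr2 KO the log2 ratio was 0.69 (0.09 to 1.29) with 5 against 15 luminal keratin cells, and 1.06 (-0.06 to 2.15) with 4 against 13 basal keratin cells. The squalene to cholesterol enzymes were thus higher beside the mevalonate enzymes in each of the 4 groups of cells, with an interval that included 0 in the smallest. Among the 4 mevalonate-high cells of that group were the 2 named above with under 3 times as many basal as luminal keratin UMIs. Those 2 had 6 squalene to cholesterol UMIs each and the other 2 had 0 and 2, so the ratio rested on that pair. Alternative settings for this split were run in Ctrl only.

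**Figure D4:**
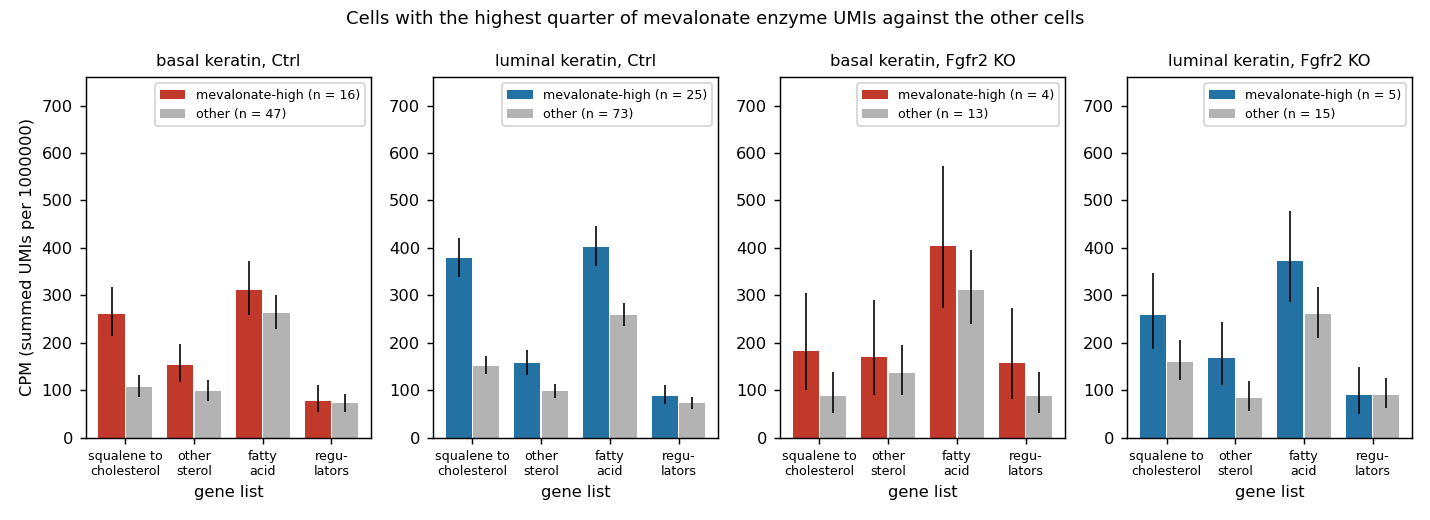
Summed level (y axis, CPM) of the squalene to cholesterol enzymes, other sterol synthesis genes, fatty acid enzymes and regulators in mevalonate-high cells (coloured) and the other cells (grey) of basal and luminal keratin cells in each library, with the number of cells in each key. Bars start at 0 and error bars are 95% Poisson intervals. Squalene to cholesterol enzymes stand at 379 against 152 CPM in Ctrl luminal keratin cells, and the regulators at 88.7 against 71.9 CPM.

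Single genes of the later steps carried this difference. In Ctrl luminal keratin cells 20 of the remaining genes had at least 20 UMIs, 8 of them were at least 2-fold higher in mevalonate-high cells against 2.71% of all genes, and none was 2-fold lower against 6.03%. They were Cyp51 at 2.14 (1.33 to 3.0), Insig1 at 1.76 (0.79 to 2.78), Msmo1 at 1.67 (1.09 to 2.27), Fdft1 at 1.54 (0.91 to 2.18), Sqle at 1.33 (0.85 to 1.82), Dhcr7 at 1.08 (0.24 to 1.92), Acly at 1.06 (0.53 to 1.58) and Fads2 at 1.10 (-0.27 to 2.50). Sc5d at 0.28 (-0.45 to 0.99) and Nsdhl at 0.58 (-0.27 to 1.41) were the sterol enzymes past the minimum with intervals that included 0. The median log2 ratio was 0.59 over the 20 genes and -0.02 over all genes. Among 5 measured sterol synthesis genes outside the set, Hsd17b7 stood at 1.75 and Pmvk at 1.11, and of the other lists Dgat2 (-1.70) and Npc1, at -1.17 (-2.93 to 0.26), were 2-fold lower.

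In Ctrl basal keratin cells 15 of the remaining genes could be followed, and 5 were at least 2-fold higher in mevalonate-high cells, against 5.36% of all genes. These were Msmo1 at 2.38 (1.20 to 3.68), Sqle at 1.95 (1.02 to 2.93), Nsdhl at 1.44, Cyp51 at 1.35 and Acly at 1.26. Fads1 was the 1 gene at least 2-fold lower, at -1.62 (-3.02 to -0.47), against 4.45%. The median was 0.47 over the 15 genes and 0.14 over all genes. Outside the set, Acsl5 (1.28) and Soat1, at 1.09 (-0.33 to 2.51), were 2-fold higher, and Apoe (-1.09) and Agpat3, at -1.30 (-3.30 to 0.27), were lower.

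In Ctrl the fatty acid enzymes and regulators moved less between these cells. In luminal keratin cells of Ctrl the fatty acid enzymes had 402 CPM in mevalonate-high and 258 CPM in other cells, a log2 ratio of 0.64 (0.43 to 0.84), and in basal keratin cells 312 and 263 CPM, a log2 ratio of 0.24 (-0.08 to 0.57). Intervals in Fgfr2 KO overlapped those of the squalene to cholesterol enzymes, with 0.52 (0.03 to 1.0) for fatty acid enzymes in luminal and 0.38 (-0.29 to 1.02) in basal keratin cells, and with 0.01 (-0.97 to 0.93) and 0.84 (-0.35 to 1.97) for regulators. Srebf2 had a log2 ratio of 0.11 (-0.63 to 0.81) in luminal and 0.47 (-0.57 to 1.48) in basal keratin cells, and Srebf1 had -0.27 (-0.99 to 0.42) and -0.37 (-1.46 to 0.62). Cell cycle genes moved with the split, at 5226 against 3313 CPM in luminal and 5497 against 3079 CPM in basal keratin cells of Ctrl, and at 7349 against 2624 CPM and 4857 against 1396 CPM in those of Fgfr2 KO. Lineage markers moved too. In Fgfr2 KO mevalonate-high basal keratin cells had 3946 against 12374 CPM of basal and 1992 against 1072 CPM of luminal markers, and mevalonate-high luminal keratin cells had 3260 against 8167 CPM of luminal markers. In Ctrl luminal markers stood at 1976 against 1723 CPM in basal keratin cells, and basal markers stood at 9179 against 7838 CPM in basal and luminal markers at 8345 against 8595 CPM in luminal keratin cells. Across single cells the Spearman correlation of sterol enzyme with cell cycle level was 0.42 over 98 luminal keratin cells, 0.44 over 63 basal keratin cells and 0.14 over 73 Ptprc-positive cells of Ctrl, where cells share a library and values share the depth of the cell. With luminal markers it was 0.42 over the basal keratin cells of Ctrl and 0.06 over the luminal ones, and in Fgfr2 KO it was 0.58 over 17 basal and -0.42 over 20 luminal keratin cells, against 0.41 and 0.61 with cell cycle genes. Mevalonate-high luminal keratin cells had a median of 34614 UMIs and the others of 21444. With cells of at least 20000 UMIs only, the log2 ratio of the squalene to cholesterol enzymes was 1.12 in luminal and 1.26 in basal keratin cells. The part of cell cycle and lineage in the difference was not tested.

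Between the libraries, the summed sterol enzymes of basal keratin cells were lower in Fgfr2 KO, with an interval that covers counting error only. Those of luminal keratin cells were so only under some settings, and intervals for the fatty acid enzymes included 0. In basal keratin cells the log2 ratio of Fgfr2 KO over Ctrl was -0.42 (-0.80 to -0.05) for the summed sterol enzymes and 0.27 (-0.07 to 0.60) for the fatty acid enzymes. The mevalonate arm had -0.37 (-0.91 to 0.13) and the squalene to cholesterol arm -0.47 (-1.06 to 0.08), both with intervals that included 0. The variance of sterol UMIs between these cells, relative to Poisson counting, was 5.52 in Fgfr2 KO and 5.99 in Ctrl, which the intervals leave out. In luminal keratin cells the log2 ratio was -0.24 (-0.46 to -0.03) for the sterol and -0.06 (-0.31 to 0.19) for the fatty acid enzymes. There the sterol ratio had an interval that included 0 with Ptprc-positive cells called from at least 2 UMIs, at -0.14 (-0.34 to 0.05), and with totals without mitochondrial and ribosomal protein genes, at -0.16 (-0.38 to 0.05), and it was -0.03 with every cell weighted alike. Cell cycle genes in basal keratin cells had 2336 CPM in Fgfr2 KO and 3851 CPM in Ctrl, and stress genes had 13324 and 8434 CPM. Luminal markers there had 1321 and 1804 CPM and basal markers 10088 and 8266 CPM. The part of these genes in the difference was not tested. With 1 library per group, genotype and library cannot be told apart, and the donor of a single cell was not traced. The paper reports that many Fgfr2∆/∆ basal donor cells became luminal in such transplants at a later time, so keratin class need not follow donor. With the larger keratin pair required to be at least 3 times the smaller, which leaves out the 2 Fgfr2 KO cells named above, the log2 ratio of the sterol enzymes in basal keratin cells was -1.32.

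In basal keratin cells 22 of the 29 genes had at least 20 UMIs over both libraries. The synthase Fasn had 9 UMIs in Fgfr2 KO (31.8 CPM) and 14 in Ctrl (11.2 CPM), a log2 ratio of 1.5 (0.11 to 2.81). Acsl3, which activates long-chain fatty acids, had 9 UMIs (31.8 CPM) and 15 UMIs (12 CPM), a log2 ratio of 1.40 (0.03 to 2.69). Elovl1 had 20 UMIs (70.7 CPM) and 41 UMIs (32.9 CPM), a log2 ratio of 1.10 (0.25 to 1.91). These 3 were the genes at least 2-fold higher in Fgfr2 KO, against 4.14% of all genes. Cyp51, Nsdhl, Scd1 and Sqle were at least 2-fold lower, against 11.5% of all genes, with 1 to 4 UMIs each in Fgfr2 KO and intervals that included 0. Srebf1 had 63.6 CPM in Fgfr2 KO and 36.1 CPM in Ctrl, a log2 ratio of 0.82 (-0.06 to 1.63). Of the 22 genes, 3 had an interval above 0 and 0 below it, against 5.32% and 7.83% of all genes. Outside the set Fabp5 (-1.38) was 2-fold lower and Scap, the SREBP escort, higher at 1.0 (-0.24 to 2.14). Macrophage markers in these cells had 102 CPM in Fgfr2 KO and 327 CPM in Ctrl, and their part was not tested. The median log2 ratio was 0.02 over the 22 genes and -0.10 over all genes.

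**Figure D5:**
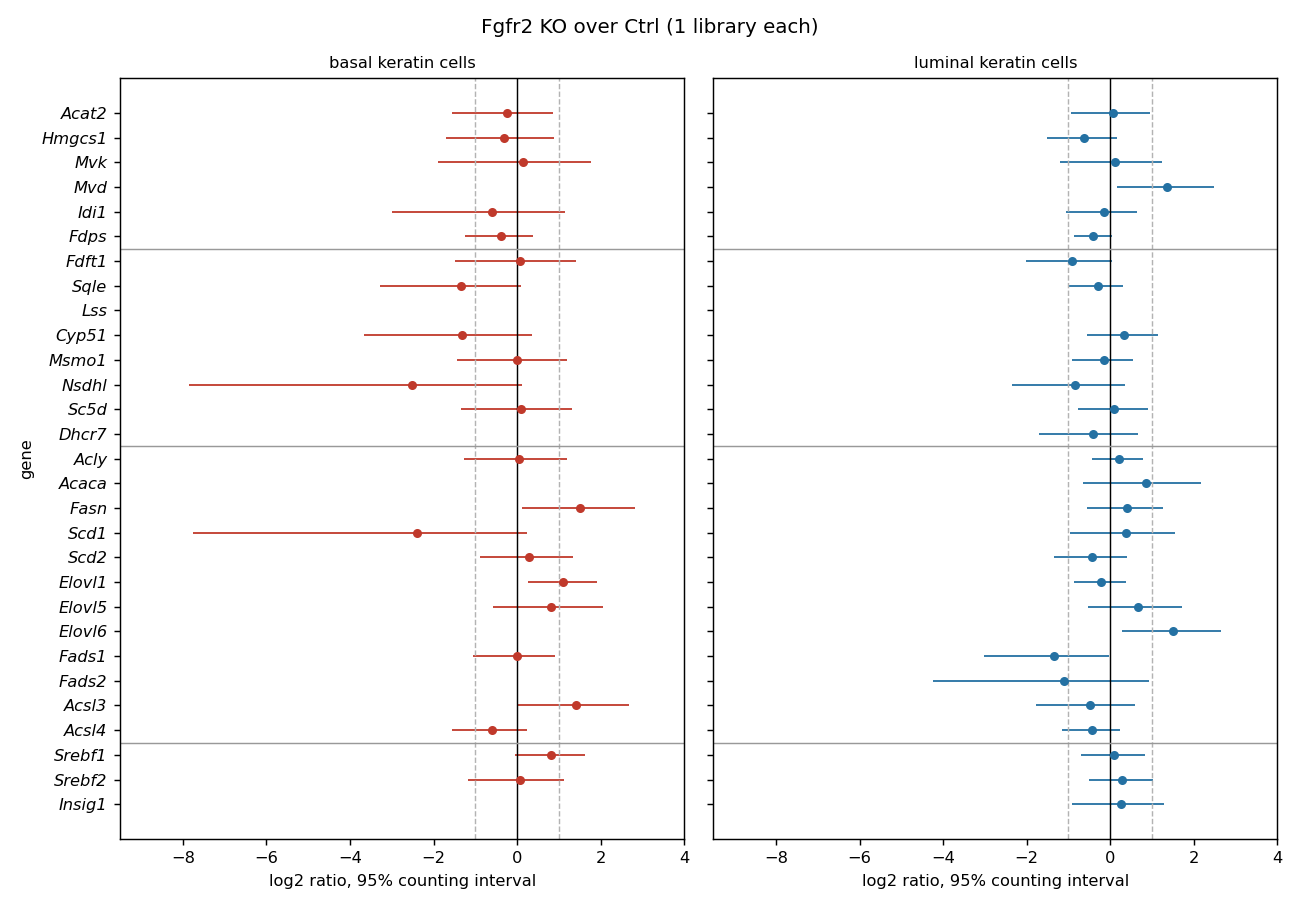
Log2 ratios of Fgfr2 KO over Ctrl (x axis) in basal keratin (left) and luminal keratin cells (right) for each gene with at least 20 UMIs in the comparison. Points are ratios of summed levels, bars are 95% counting intervals and dashed lines mark 2-fold, with 1 library on each side. Fasn, Elovl1 and Acsl3 on the left and Elovl6 and Mvd on the right have bars wholly above 0, and Fads1 on the right has a bar wholly below 0.

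In luminal keratin cells, a class set by keratin UMIs and not by donor, 28 genes could be followed. Elovl6 at 1.5 (0.29 to 2.65) and Mvd at 1.36 (0.16 to 2.48) were at least 2-fold higher in Fgfr2 KO, against 3.94% of all genes. Fads1 at -1.34 (-3.01 to -0.04) and Fads2 at -1.10 (-4.24 to 0.93) were at least 2-fold lower, against 8.97%. The median was -0.04 over the 28 genes and -0.03 over all genes. Of the 28 genes, 2 had an interval above 0, against 6.75% of all genes, and 1 below it, against 9.32%. Outside the set Scarb1 (1.21) was 2-fold higher, and Apoe (-1.48) and Dgat2 (-1.17), which makes triglyceride, were lower. Macrophage markers stood at 119 CPM in Fgfr2 KO and 325 CPM in Ctrl luminal keratin cells, and their part in these differences was not tested.

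In Ptprc-positive cells the comparison depended on which cells were kept. Hmgcs1 at 1.31 (0.26 to 2.30) and Idi1 at 1.62 (0.30 to 2.87) were at least 2-fold higher in Fgfr2 KO, against 7.8% of all genes, and Acat2, Acsl3 and Fads1 were at least 2-fold lower, against 12.2%, among 18 genes. Without the cell with the most UMIs of the gene in each library, Idi1 stood at -0.77 and Hmgcs1 at 1.3. For the summed sterol enzymes the log2 ratio of 0.21 (-0.17 to 0.57) became -0.88 (-1.57 to -0.25) without the top cell of each library. With the keratin-rich Ptprc-positive cells of both libraries left out, 22 against 58 cells, it was -0.14 (-0.89 to 0.55). Outside the set, the fatty acid carriers Cd36 (-2.67) and Fabp5 (-2.27) and the droplet protein Plin2 (-1.10) were lower in Fgfr2 KO Ptprc-positive cells. In the cells with under 10 keratin UMIs, Cd36 had 101 CPM in the knockout and 642 CPM in Ctrl, Fabp5 had 384 and 1791 CPM, and Plin2 had 598 and 1051 CPM. Macrophage markers moved with them, at 9270 against 13109 CPM over the class and 13377 against 19321 CPM in the cells with under 10 keratin UMIs, and stress genes over the class were at 8486 against 5146 CPM, and their part in the difference was not tested. Acsl1 had 0 against 31 UMIs and Hacd2 1 against 38, Insig2, Npc1 and Nr1h3 were also at least 2-fold lower, with 1 or 2 UMIs each in Fgfr2 KO, and Abcg1 (1.27), Me1 (1.85) and Slc25a1 (1.02) were higher. The class had 271402 UMIs in all in Fgfr2 KO and 1247271 in Ctrl, so that 0 UMIs in Fgfr2 KO allow up to 11.1 CPM at a floor of 3 counts.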

How the data were processed

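Single-cell UMI counts were measured in 1 Ctrl and 1 Fgfr2 KO library. The deposited counts came from Cell Ranger, whose aggr function the authors used to combine the libraries. The submitters' processing notes name version 2.1.1 and the build mm10, while the annotation was not given in the sources used here. The table was not filtered for immune cells. Its 28000 rows were 27998 genes and 2 reporters, columns were given to libraries by the start of their names, and 1 gene of the fixed lists was not among the rows. Some pathway genes outside the set are not reported here.

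The 29 genes, the other lists and the class rules were chosen with earlier results of these data known. All 29 are named, and other pathway genes where they had at least 20 UMIs and a ratio past 2-fold in a comparison of whole classes or libraries, while those named for subsets of a class were chosen after their values were seen. UMIs were summed over the cells of a class and divided by all their UMIs (CPM), with exact Poisson 95% intervals, and ratios had exact conditional binomial 95% intervals. Level comparisons thus rest on 4086 to 96751 UMIs per Ctrl cell and 1367 to 84314 per Fgfr2 KO cell. No cell was left out and doublets were kept, with 3 of 268 and 2 of 86 cells called by Scrublet. Alternatives were other keratin and Ptprc thresholds, equal weight for each cell, totals without mitochondrial and ribosomal protein genes, and leaving out cells over 25% mitochondrial UMIs, called doublets or top cells. Scripts were tested on simulated Poisson counts, a setting without the spread between cells seen here. Gene positions were from GENCODE M21. Python 3.11.15, numpy 2.4.6, scipy 1.17.1, pandas 2.3.3, scanpy 1.11.5 and matplotlib 3.10.9 were used.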

Additional observations from a re-analysis of the deposited data

How the results depend on the processing

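Of 126 alternatives over 16 summed results, 109 gave a value within the counting interval reported above and 17 moved outside it. None reversed a ratio whose interval excluded 0. Some of the 109 could not differ, because the setting left the compared cells unchanged, and these do not test the result. The mitochondrial limit removed no keratin cell of either library and no Ctrl Ptprc-positive cell. Leaving out called doublets removed no basal keratin cell, and other keratin thresholds did not change the Ptprc-positive cells. Signs did differ for some ratios of Fgfr2 KO over Ctrl whose interval included 0, those of both lists in Ptprc-positive cells and of fatty acid enzymes in luminal keratin cells. With the larger keratin pair at least 3 times the smaller, the log2 ratio of sterol enzymes was -1.53 for basal over luminal keratin cells of Fgfr2 KO and -1.32 for Fgfr2 KO over Ctrl in basal keratin cells. For Ptprc-positive over keratin cells of Ctrl, the sterol ratio was -1.69 with Ptprc-positive cells from at least 2 UMIs, -1.13 with every cell weighted alike and -1.71 without keratin-rich Ptprc-positive cells, an alternative chosen after seeing the data. In Fgfr2 KO the same 3 settings gave -1.56, -1.36 and -1.55, and leaving out the top cell of each group gave -1.46, while the fatty acid ratio was -1.03, -0.78, -0.90 and -0.84. For Fgfr2 KO over Ctrl in Ptprc-positive cells, the sterol ratio was -0.46 with every cell weighted alike and -0.88 without top cells, and the fatty acid ratio was -0.48 from at least 2 Ptprc UMIs and -0.53 without top cells. With a minimum of 50 in place of 20 UMIs per gene, the genes at least 2-fold apart between Ctrl classes went from 3 to 2 for basal lower than luminal and from 9 to 8 for Ptprc-positive lower than keratin cells, while Insig1 kept its place as the 1 higher gene. In Fgfr2 KO the count went from 1 to 0 for basal lower than luminal, and for Ptprc-positive cells from 1 to 0 higher and from 4 to 0 lower. Between the libraries, counts higher and lower in Fgfr2 KO went from 3 and 4 to 1 and 0 in basal keratin, from 2 and 2 to 0 and 1 in luminal keratin and from 2 and 3 to 0 and 0 in Ptprc-positive cells, as fewer genes met the minimum. No paired analysis was possible because each group had 1 library. Depth limits single genes of the Fgfr2 KO basal keratin cells, where 3 counts are 10.6 CPM.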

Other observations

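The keratin-low or tied cells entered no comparison. In Ctrl these 34 cells were mixed, with 19043 CPM of fibroblast and 6252 CPM of macrophage markers, and they had 151 CPM of sterol enzymes (interval 113 to 199) and 317 CPM of fatty acid enzymes (260.1 to 384). Scd2 had 24 UMIs there (71.2 CPM) and Elovl5 had 15 UMIs (44.5 CPM), each above the same gene in the other 3 classes of Ctrl, while Fdps had 4 UMIs (11.9 CPM) and Sqle had 1. In Fgfr2 KO the 26 cells had more macrophage markers (6583 CPM) than fibroblast markers (1872 CPM), with 154 CPM of sterol enzymes (99.6 to 227) and 203 CPM of fatty acid enzymes (140 to 285), and Insig1 had 8 UMIs (49.3 CPM). Sterol enzymes were thus lowest there among the 4 classes of each library, but Ptprc-positive cells with under 10 keratin UMIs lay lower, at 129 CPM (Ctrl) and 117 CPM (Fgfr2 KO).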
